A study of Arabidopsis thaliana with 24 samples.

Results

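Small nucleolar RNA (snoRNA) genes of Arabidopsis thaliana were followed in the transcriptome of the pistil. They were taken as every gene that the count table annotates with the biotype snoRNA, which gave 287 of 33055 genes. A gene was counted as detected when its reads summed to at least 10 over the 24 libraries, and 168 of the 287 genes (58.5%) were. The study compared unfertilized pistils of flower stages before anthesis in Col-0 (the wild type), in the photoreceptor mutant phyB and in 35S::PIF4, with 4 libraries in each of 6 groups. All plants were grown at normal ambient temperature (nAT, 21 °C by day and 18 °C by night) until flowering and then either stayed at nAT or were moved to high ambient temperature (hAT, 28 °C and 24 °C), under 16 h of light of 150 µmol per square metre and second and 8 h of dark. phyB, given in the records as phyb-9 (N6217), is a mutant of the red light and temperature sensor phytochrome B. 35S::PIF4 carries the transcription factor PIF4 under the viral 35S promoter, which is active in nearly all plant cells, so that PIF4 was not raised in the pistil alone. The tissue is given as pistils in the records, whereas their extraction protocol speaks of ovules. The study calls the replicates biological without saying whether they came from separate plants, so the p-values measure the spread between these libraries only.

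snoRNAs are short non-coding RNAs that guide the chemical modification of ribosomal RNA in the nucleolus. Box C/D snoRNAs pair with the rRNA and direct fibrillarin to methylate the 2′ hydroxyl of a ribose, and box H/ACA snoRNAs direct the enzyme CBF5 (dyskerin) to convert uridine to pseudouridine. In plants many of them are transcribed together from a promoter of their own as one long precursor that is then cut, and others are spliced out with the introns of genes for ribosomal or nucleolar proteins. The libraries were made from RNA bound to oligo(dT), whereas mature snoRNAs carry no poly(A) tail. The counts therefore do not measure the mature snoRNA pool, and precursors, tailed intermediates and other overlapping transcripts cannot be told apart in them.

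Sequences are shown for the 3 gene clusters and the intronic gene on which the comparisons below turn. They were read from the TAIR10.1 genome of RefSeq, in which all 287 genes had the coordinates of the count table, and they run 5′ to 3′ along the strand of the gene. Capitals mark a box C motif (TGATGA) within the first 20 bases and a box D motif (CTGA) within the last 15 bases. The first 5 genes form a cluster on chromosome 4 (chr4:18304891-18305704) and are shown because they were higher in 35S::PIF4 at hAT. 4 of them carry long stretches of the same letters.
AT4G39361 (chr4:18304891-18305010, plus strand): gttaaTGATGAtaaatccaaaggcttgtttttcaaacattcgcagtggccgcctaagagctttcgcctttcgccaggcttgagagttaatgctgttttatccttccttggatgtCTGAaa
AT4G09845 (chr4:18305108-18305210, plus strand): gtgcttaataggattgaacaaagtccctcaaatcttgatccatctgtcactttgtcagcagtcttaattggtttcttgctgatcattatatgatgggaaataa
AT4G39363 (chr4:18305256-18305375, plus strand): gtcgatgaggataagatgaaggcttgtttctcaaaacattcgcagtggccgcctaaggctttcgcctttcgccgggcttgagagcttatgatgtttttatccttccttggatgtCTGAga
AT4G39364 (chr4:18305415-18305536, plus strand): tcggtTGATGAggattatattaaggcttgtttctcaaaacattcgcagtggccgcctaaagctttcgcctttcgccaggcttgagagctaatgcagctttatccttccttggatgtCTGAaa
AT4G39366 (chr4:18305585-18305704, plus strand): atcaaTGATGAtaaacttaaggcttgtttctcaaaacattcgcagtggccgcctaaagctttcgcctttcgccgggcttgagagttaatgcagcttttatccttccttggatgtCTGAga

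The longest run of identical bases in this cluster was 57, between AT4G39364 and AT4G39366, and it was 38 between AT4G39363 and each of them. The handling of reads that match more than 1 gene is not given in the sources used, so that the division of counts among these 4 genes is uncertain. The following 3 genes form a cluster on chromosome 2 (chr2:2184567-2185087) and are shown because their fold changes between hAT and nAT had opposite signs in Col-0 and phyB.
AT2G04965 (chr2:2185022-2185087, minus strand): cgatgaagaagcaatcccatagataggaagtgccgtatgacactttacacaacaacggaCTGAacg
AT2G04955 (chr2:2184672-2184820, minus strand): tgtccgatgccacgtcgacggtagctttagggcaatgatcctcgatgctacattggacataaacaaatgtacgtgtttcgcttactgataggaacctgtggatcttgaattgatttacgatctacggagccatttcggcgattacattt
AT2G05765 (chr2:2184567-2184645, minus strand): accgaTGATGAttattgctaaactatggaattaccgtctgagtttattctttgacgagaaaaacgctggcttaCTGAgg

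A pair of longer genes on chromosome 5 is shown because it was lower at hAT. The longest run that the pair shares was 21 bases.
AT5G02565 (chr5:5448918-5449170, plus strand): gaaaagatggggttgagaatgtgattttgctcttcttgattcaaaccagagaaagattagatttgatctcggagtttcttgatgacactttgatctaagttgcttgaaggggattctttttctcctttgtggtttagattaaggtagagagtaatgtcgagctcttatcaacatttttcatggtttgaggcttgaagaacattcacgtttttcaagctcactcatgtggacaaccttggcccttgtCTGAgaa
AT5G02575 (chr5:5449240-5449529, plus strand): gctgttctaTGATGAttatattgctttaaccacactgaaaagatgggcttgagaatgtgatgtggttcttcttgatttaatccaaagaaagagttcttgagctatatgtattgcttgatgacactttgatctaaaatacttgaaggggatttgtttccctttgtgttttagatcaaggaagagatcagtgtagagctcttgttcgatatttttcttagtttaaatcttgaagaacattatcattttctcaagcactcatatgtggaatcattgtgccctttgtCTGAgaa

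The most abundant snoRNA gene, and U60.1F (AT5G52471), which lies in an intron of the fibrillarin gene FIB1 on the same strand, complete the set.
AT3G47348 (chr3:17445963-17446047, plus strand): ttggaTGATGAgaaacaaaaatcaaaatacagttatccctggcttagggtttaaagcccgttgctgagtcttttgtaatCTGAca
AT5G52471 (chr5:21295736-21295809, plus strand): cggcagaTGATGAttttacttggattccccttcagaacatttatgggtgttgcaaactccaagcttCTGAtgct

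Over all 287 genes, 120 (41.8%) held both a box C and a box D within these windows, against 0.0547% of protein-coding genes. The letters ACA stood 3 bases before the 3′ end, as in box H/ACA snoRNAs, in 52 genes (18.1%). The other 115 genes held neither pattern as defined here, among them AT4G09845, and 63 of these were detected. A missing match says only that these letters are not in the window.

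The share of genes detected differed with what else the annotation holds at the same position. Of the 143 genes that overlap no other gene, 116 were detected, and they held 83.1% of the 133279 counts on snoRNA genes. Of the 50 genes in an intron of a gene on the same strand, 45 (90%) were detected. In contrast, only 5 of the 63 genes that lie in a UTR or a non-coding exon of a gene on the same strand, none of the 11 in a coding exon and 2 of the 20 opposite to another gene reached 10 counts. No source used here gives how reads that fit 2 overlapping genes were counted or whether the count used the strand, so that the low counts of the exonic genes do not show that they are silent. In total, 97 genes had no read in any library. The member nearest to the limit on the inner side was AT5G09020 with 10 counts, and the nearest outside was AT5G08850 with 9 counts, each spread over 6 libraries.

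**Figure D1:**
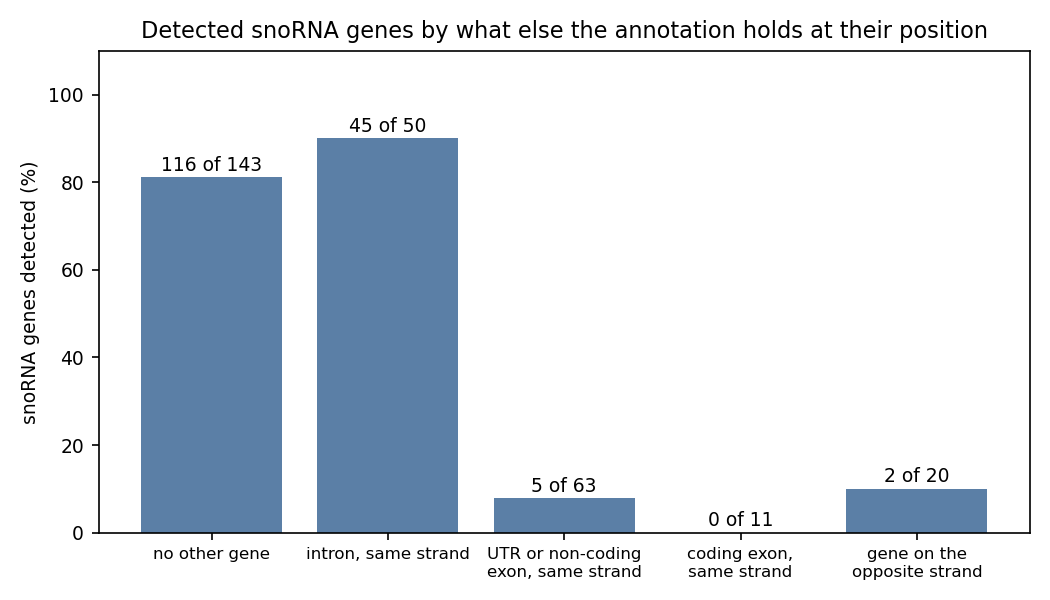
Share of snoRNA genes detected (percent, at least 10 counts summed over 24 libraries) by what else is annotated at the same position; the labels give detected of all genes. Detection was 81.1% for genes overlapping no other gene and 90% for intronic genes, and it was 7.9% for genes in a UTR or non-coding exon.

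Most snoRNA genes lay close to others. When genes on 1 strand less than 500 bases apart were joined, 214 genes fell into 70 clusters, and these held 93.5% of the snoRNA counts. The cluster on chromosome 3 that ends with AT3G47348 (chr3:17445266-17446047, 6 genes) held 19619 counts, and the chromosome 4 cluster shown above held 16390. A cluster of 3 genes on chromosome 1 (chr1:27984604-27985042) held 12874 counts. The 10 most abundant genes together held 43.1% of the counts and the most abundant one held 10.5%. Per kilobase of gene, the mean level over all libraries was 309.9 CPM (counts per 1000000 gene counts of a library) for AT3G47348, 167.9 for AT2G08765, 134.7 for AT1G09467 and 126.2 for AT4G39366, against a median of 4.80 over the 168 detected genes. The others of the 10 most abundant genes ranged from 40.8 for AT2G04955 to 107.6 for AT1G74453, with AT3G08165, AT2G04965, AT2G20721 and AT4G39361 between them.

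Promoters of snoRNA clusters and of ribosomal protein genes in Arabidopsis are known for 2 short elements, the telo-box and site II. The window from 250 bases before to 50 bases after the first gene was searched on both strands for the telo-box core AAACCCT and the site II core TGGGC, which do not overlap in sequence. Among 44 detected clusters and single genes outside other genes on the same strand, 27 (61.4%) held the telo-box core and 22 (50%) held site II. Among 26 such units with no detected gene, 6 (23.1%) held each. Over the same window of all 32768 nuclear genes the telo-box core was found in 10% and site II in 25.1%. The windows of the clusters on chromosomes 4 and 2 are shown because their genes moved together, with the motifs of either strand in capitals. The first held the telo-box core alone and the second held both motifs. The chromosome 5 pair and the chromosome 3 cluster held neither.
Window of AT4G39361 (chr4:18304641-18304940, plus strand): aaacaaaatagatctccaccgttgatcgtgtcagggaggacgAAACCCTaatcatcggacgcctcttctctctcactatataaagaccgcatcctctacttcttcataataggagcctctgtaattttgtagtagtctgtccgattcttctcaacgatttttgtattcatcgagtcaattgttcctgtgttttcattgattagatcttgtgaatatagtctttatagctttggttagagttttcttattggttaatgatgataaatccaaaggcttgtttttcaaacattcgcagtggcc
Window of AT2G04965 (chr2:2185038-2185337, minus strand): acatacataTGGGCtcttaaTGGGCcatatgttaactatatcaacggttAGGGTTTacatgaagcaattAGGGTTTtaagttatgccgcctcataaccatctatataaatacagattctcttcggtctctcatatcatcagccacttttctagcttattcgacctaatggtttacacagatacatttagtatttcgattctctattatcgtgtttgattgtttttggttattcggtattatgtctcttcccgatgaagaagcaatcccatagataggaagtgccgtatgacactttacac

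Depth was similar in the 6 groups, with 18379748 to 30184035 gene counts in a library, of which 3053 to 8250 fell on snoRNA genes, and 130 to 161 of these genes had a read. All pairs of replicates differed by more than counting error, also over the snoRNA genes alone (chi-square per degree of freedom 1.39 to 3.69). The 4 Col-0 nAT libraries stood apart. Levels in single libraries are given from here on as CPM with library sizes scaled by TMM (trimmed mean of M values). Their mean gene length weighted by counts was 1612 to 1804 bases against 2065 to 2220 in the other 20 libraries and their TMM factors were 0.675 to 0.797 against 0.996 to 1.09. The difference in length cannot be told apart from the group, and it touches each comparison with Col-0 at nAT below, for which values at hAT and within phyB and 35S::PIF4 are given as well. PIF4 was measured at 3.55 to 6.39 CPM in the 35S::PIF4 libraries, at 1.21 to 2.82 in Col-0 and at 2.46 to 4.44 in phyB. PHYB transcripts were still counted in phyB, at 59.9 to 82.3 CPM against 52.8 to 107 in Col-0, so that their level does not check this label. The 8 pistil and ovule markers summed to 428 to 551 CPM in every library, and the 3 tapetum markers stayed under 0.436 CPM. The sum hid opposite changes of single pistil and ovule markers in Col-0. From nAT to hAT the median of CRC fell from 39.1 to 14.5 CPM and that of INO (AT1G23420) from 67.6 to 44.4. The median of SHP1 (AT3G58780) rose from 56.1 to 89.0 CPM and that of BEL1 (AT5G41410) from 17.3 to 27.9. STK (AT4G09960) was also lower at hAT and MYB98 (AT4G18770) higher. None of these genes overlapped between the temperatures, whereas AG (AT4G18960) and SHP2 (AT2G42830) did. The 2 pollen markers summed to 16.9 to 40.5 CPM in Col-0 at nAT and to 97.5 to 105 at hAT. This rise was that of AT2G47040, from 14.3 to 34.6 CPM at nAT to 93.3 to 99.0 at hAT. The other pollen marker, ACT12 (AT3G46520), overlapped, at 2.23 to 5.86 CPM at nAT and 4.22 to 5.65 at hAT. The leaf marker RBCS1A was 7542 to 9430 CPM in Col-0 at nAT against 2629 to 4205 in the other libraries, and the 2 petal and stamen markers summed to 75.8 to 102 against 29.1 to 69.6. Of these 2, only PI (AT5G20240) was above all other libraries, at 39.4 to 69.7 CPM against 10.1 to 29.9. AP3 (AT3G54340) was 31.9 to 39.4 CPM in Col-0 at nAT, against 38.4 to 45.0 in phyB and 34.1 to 39.2 in 35S::PIF4 at nAT. The 4 phyB hAT libraries fell into pairs, with the pollen gene AT2G47040 at 30.6 and 33.6 CPM in replicates 1 and 2 and at 79.5 and 81.1 in replicates 3 and 4, and the carpel gene CRC (AT1G69180) at 2.96 and 3.23 against 13.6 and 11.7. The part of these markers in the results was not tested.

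snoRNA genes took a larger share of the gene counts at hAT than at nAT in each genotype, and the largest share in 35S::PIF4. The share in the 4 Col-0 libraries at nAT was 0.0188%, 0.0218%, 0.0164% and 0.0186%. At hAT it was 0.0250%, 0.0248%, 0.0234% and 0.0235%, and the groups did not overlap. In phyB the share was 0.0208% ± 0.000530 (SD, n = 4) at nAT and 0.0261% ± 0.00220 at hAT, again with no overlap. In 35S::PIF4 at nAT it was 0.0266%, 0.0273%, 0.0259% and 0.0259%. At hAT these libraries reached 0.0328%, 0.0335%, 0.0364% and 0.0339%, above every other library of the series. By an exact two-sided permutation test of 4 against 4 libraries, whose smallest p is 0.0286, the rise at hAT reached that p in Col-0, in phyB and in 35S::PIF4, and so did 35S::PIF4 above Col-0 at nAT and at hAT (adjusted p = 0.04 over 7 comparisons for each). phyB and Col-0 overlapped at both temperatures (adjusted p = 0.167 at nAT and 0.2 at hAT in the same exact test).

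How far these differences hold depends on the denominator. 35S::PIF4 was 1.41 times Col-0 at hAT by gene counts and 1.40 times by library sizes scaled with TMM. The rise at hAT was 1.25 times in phyB and 1.29 times in 35S::PIF4 by gene counts, and 1.21 and 1.20 times with TMM. In Col-0 the rise of 1.28 times turned to a ratio of 0.880 with TMM, with overlapping groups (exact permutation, adjusted p = 0.3). 35S::PIF4 against Col-0 at nAT went from 1.40 to 1.03 times (exact permutation, adjusted p = 0.714). With TMM the groups still did not overlap for hAT against nAT in phyB and in 35S::PIF4 and for 35S::PIF4 against Col-0 at hAT, but the adjusted p of each was 0.05 (exact permutation), at the threshold and not under it. phyB and Col-0 overlapped at hAT on either scale, and at nAT phyB was 0.788 times Col-0 with TMM, without overlap (exact permutation, adjusted p = 0.05).

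**Figure D2:**
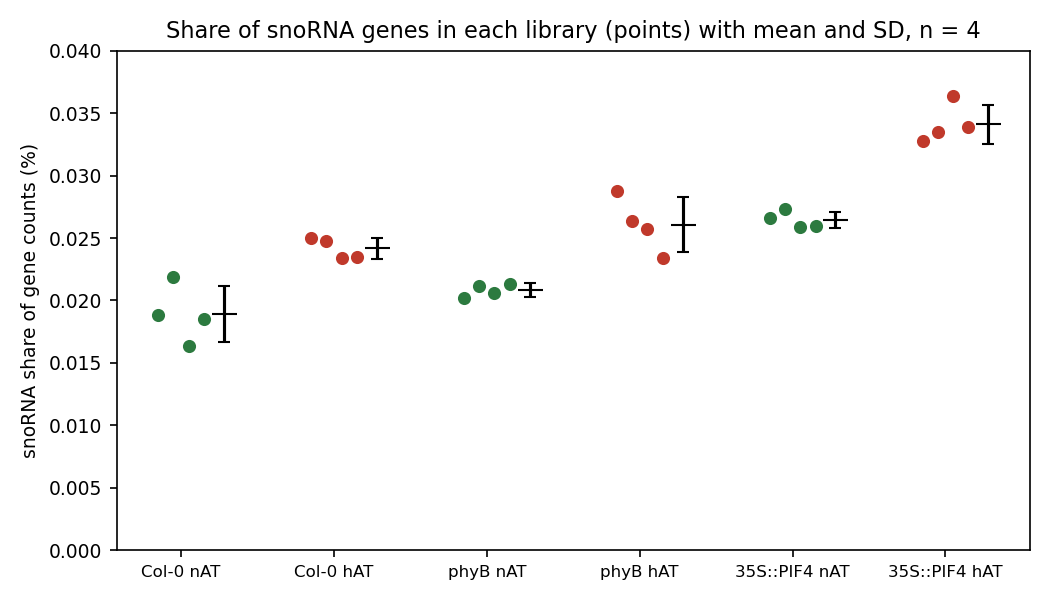
Share of all gene counts that fell on snoRNA genes (percent, vertical axis from 0) in each library of the 6 groups, nAT in green and hAT in red, with the mean and SD (n = 4) in black. The hAT libraries lie above the nAT libraries of the same genotype, and 35S::PIF4 at hAT lies highest at 0.0328% to 0.0364%.

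After filtering for low counts 102 snoRNA genes were tested within a fit over 21312 genes. A gene was called when edgeR's quasi-likelihood test gave an adjusted p under 0.05 and the log2 fold change was at least 1 in either direction. Over the 6 groups, 89 of the 102 (87.3%) differed at an adjusted p under 0.05, against 94.1% of all tested genes. In Col-0, 32 snoRNA genes rose at hAT and 23 fell (53.9%, against 37.6% of all tested genes, 24.2% higher and 13.4% lower), with a median log2 fold change of 0.36 against 0.14. Of 208 other tested genes that were no longer than the longest tested snoRNA gene (290 bases), 63.5% were called. At hAT 43.8% of the 208 were higher and 19.7% lower, with a median log2 fold change of 0.82. Short genes as a class thus differed strongly in this comparison, and more of them rose than fell. A fit with gene length as an offset turned the split of the snoRNA genes to 7 higher and 40 lower. That fit called 28.1% of all tested genes (3651 higher and 2342 lower). In phyB 13 rose and 6 fell at hAT (18.6%, background 8.09%, with 4.63% higher and 3.46% lower). With the length offset 6 rose and 6 fell (offset background 7.97%, with 994 genes higher and 704 lower). Without the offset, 14.9% of the 208 other short genes were called in phyB (6.25% higher and 8.65% lower). Among 639 other genes of up to 500 bases 27.2% were called (18% higher and 9.23% lower), so that the snoRNA percentage lay between these 2 values. In 35S::PIF4 19 rose and 2 fell (20.6%, background 11%, with 8.5% higher and 2.48% lower). With the offset 10 rose and 10 fell (offset background 11%, with 1823 genes higher and 525 lower).

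Between genotypes the counts depended on the temperature. At nAT, phyB had 23 snoRNA genes above Col-0 and 28 below it (50%, background 33.1%, with 21.2% higher and 11.9% lower). The offset gave 12 and 38 (offset background 23%, with 2994 genes higher and 1917 lower). In 35S::PIF4 at nAT 29 were higher and 12 lower (40.2%, background 31.4%, with 19.3% higher and 12.2% lower). The offset turned this to 12 and 35 (offset background 22.4%, with 2563 genes higher and 2203 lower). At hAT only 3 genes were higher and 1 lower in phyB (3.92%, background 4.78%, with 1.56% higher and 3.22% lower). The split was the same under the offset (offset background 4.5%, with 352 genes higher and 607 lower). In 35S::PIF4 at hAT 8 were higher and none lower (7.84%, background 3.08%, with 1.47% higher and 1.61% lower), with a median of 0.48 on the log2 scale over the 102 genes against -0.02 over all tested genes, and 93 of the 102 had a positive fold change. An unadjusted p under 0.05 was found for 41 of the 102 here. The share of all tested genes at that limit is not given, so that nothing particular to snoRNA genes is read from this count. The offset left 2 calls among the 102, AT4G39363 and AT2G08760, and a median of 0.26. It called 3.17% of all tested genes here (297 higher and 379 lower), so that the higher percentage of snoRNA genes did not hold with it. The 5 comparisons that use Col-0 nAT or Col-0 hAT share these control libraries. Other short genes were set beside the snoRNA genes only for Col-0 and phyB between the temperatures. In the other comparisons the percentages stand against all tested genes alone, and what part gene length has in them was not tested.

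**Figure D3:**
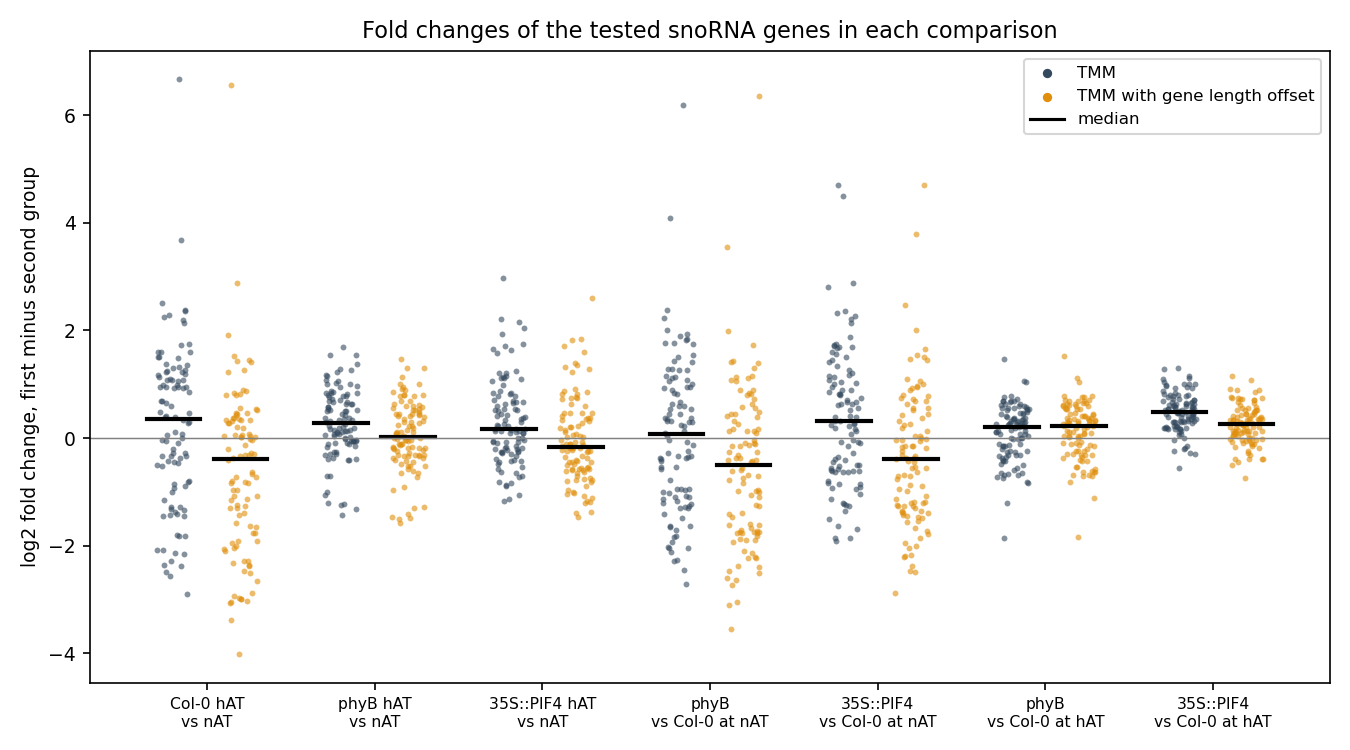
Log2 fold changes of the 102 tested snoRNA genes (points) in the 7 comparisons, first group minus second, from the TMM fit (dark) and from the fit with a gene length offset (orange), with medians as black lines. The median moved from 0.36 to -0.39 in Col-0 hAT vs nAT, and it stayed above 0 in both comparisons at hAT.

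The chromosome 4 cluster (AT4G39361, AT4G09845, AT4G39363, AT4G39364 and AT4G39366) held 4 of the 8 genes called higher in 35S::PIF4 than in Col-0 at hAT. AT4G39361 was measured at 11.8, 10.9, 11.0 and 13.5 CPM in 35S::PIF4 at hAT and at 5.26, 5.58, 4.44 and 6.66 CPM in Col-0 at hAT. It was 5.73, 4.79, 5.05 and 4.18 CPM in 35S::PIF4 at nAT, 5.39, 5.05, 4.20 and 4.96 in phyB at nAT, and 7.09, 3.92, 4.32 and 4.50 in phyB at hAT. The lowest values, 1.66, 0.887, 2.36 and 2.18 CPM, were those of Col-0 at nAT, and the 35S::PIF4 hAT libraries lay above all others without overlap. The log2 fold change at hAT between 35S::PIF4 and Col-0 was 1.10 ± 0.16 (SE, adjusted p = 1.43e-05), and within 35S::PIF4 between hAT and nAT 1.25 ± 0.17 (adjusted p = 5.35e-07). In phyB it was 0.01 ± 0.18 between hAT and nAT, and the difference of the responses of 35S::PIF4 and phyB was itself called at 1.24 (adjusted p = 0.000418). For the other genes of the cluster this difference was 0.98 (AT4G39363), 0.68 (AT4G09845), 0.49 (AT4G39364) and 0.17 (AT4G39366), and none of these was called. AT4G39363 was 6.32, 6.02, 5.37 and 5.31 CPM in 35S::PIF4 at hAT and 2.79, 2.88, 2.37 and 1.43 CPM in Col-0 at hAT, again with no overlap. Its log2 fold change was 1.29 ± 0.19 (adjusted p = 1.28e-05), with 1.15 for AT4G09845 and 1.12 for AT4G39364, both called as well.

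AT4G39366, the last and most abundant gene of the cluster, was 20.8, 20.6, 22.7 and 23.1 CPM in 35S::PIF4 at hAT and 13.3, 13.8, 12.6 and 13.6 in Col-0 at hAT. The groups did not overlap, but its log2 fold change of 0.71 ± 0.10 (adjusted p = 7.16e-06) stayed under the limit for a call. The summed level of the cluster was 51.5 CPM in 35S::PIF4 at hAT, 27.7 in 35S::PIF4 at nAT, 26.7 in Col-0 at hAT, 25.7 and 32.9 in phyB at nAT and hAT, and 14.3 in Col-0 at nAT. With the length offset the 5 genes kept positive fold changes between 35S::PIF4 and Col-0 at hAT, at 0.49 to 1.07, and of them only AT4G39363 passed the limit. The other genes called in this comparison were AT2G08760 (1.31), AT1G04217 (1.04) with AT1G03935 (1.01) from the same cluster on chromosome 1, and AT5G00760 (1.00) in an intron of AT5G01350, which was named after its values were seen. The call of AT1G04217 was lost when any 1 of 6 of the 8 libraries was left out (0.90 to 1.08, below the fold limit or with an adjusted p above 0.05), and AT1G03935 shares a run of 47 bases with AT1G03506.

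Of the chromosome 2 cluster (AT2G04965, AT2G04955 and AT2G05765), AT2G04955 and AT2G05765 fell at hAT in Col-0, and no gene of the cluster was called between hAT and nAT in phyB. AT2G04955, whose 3′ end holds ACA, was 9.21, 11.9, 8.02 and 8.00 CPM in Col-0 at nAT and 3.91, 3.49, 3.93 and 3.87 at hAT. In phyB it was 4.49, 3.49, 4.00 and 4.33 CPM at nAT and 8.22, 7.72, 9.59 and 6.23 at hAT. In 35S::PIF4 it was 8.13, 7.25, 5.75 and 6.92 CPM at nAT and 5.67, 5.03, 5.89 and 4.12 at hAT. Col-0 and phyB thus separated the temperatures without overlap and in opposite directions, and 35S::PIF4 overlapped. The log2 fold change between hAT and nAT was -1.27 ± 0.15 in Col-0 (adjusted p = 2.20e-08), 0.97 ± 0.15 in phyB (adjusted p = 7.10e-06, under the limit for a call) and -0.44 ± 0.14 in 35S::PIF4 (adjusted p = 0.0129). AT2G05765 was 4.43, 5.73, 3.91 and 4.30 CPM in Col-0 at nAT and 2.28, 1.44, 1.35 and 1.94 at hAT. In phyB it was 2.38, 1.39, 2.10 and 2.05 CPM at nAT and 4.22, 3.84, 3.75 and 2.72 at hAT, so that neither genotype overlapped between the temperatures. Its log2 fold change was -1.37 ± 0.20 in Col-0 (adjusted p = 8.44e-07), 0.88 ± 0.20 in phyB (adjusted p = 0.000744, under the limit for a call) and -0.41 ± 0.19 in 35S::PIF4 (adjusted p = 0.0762).

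The responses differed by 2.24 ± 0.21 between phyB and Col-0 (adjusted p = 6.49e-10) for AT2G04955 and by 2.24 ± 0.28 for AT2G05765 (adjusted p = 9.66e-08), both called. 35S::PIF4 minus phyB, a contrast without the Col-0 means, gave -1.41 for AT2G04955 (adjusted p = 1.33e-05) and -1.28 for AT2G05765 (adjusted p = 0.00101). At hAT phyB was higher than Col-0 by 1.07 for AT2G04955 (adjusted p = 3.72e-06) and by 1.04 for AT2G05765 (adjusted p = 0.00022), and leaving out single libraries took the former to 0.96 and the latter to 0.94. AT2G04965, the first gene of the cluster, had -0.88 in Col-0, 0.50 in phyB and -0.20 in 35S::PIF4 between hAT and nAT, none of them called, and its response differed by 1.38 between phyB and Col-0 (adjusted p = 4.51e-06). The other 2 genes called in phyB against Col-0 at hAT were AT1G09867, higher by 1.47, and AT5G02565, lower by 1.20.

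The chromosome 5 pair fell at hAT in Col-0 and in phyB, and 1 of its genes fell in 35S::PIF4. AT5G02575 was 12.3, 21.6, 8.76 and 10.1 CPM in Col-0 at nAT and 1.93, 2.14, 2.41 and 2.40 at hAT, which is a log2 fold change of -2.56 ± 0.23 (adjusted p = 9.76e-11). In phyB it went from 3.50, 3.62, 2.41 and 3.14 CPM to 1.53, 1.35, 1.23 and 0.937, by -1.32 ± 0.26 (adjusted p = 0.000246). In 35S::PIF4 it went from 3.45, 5.02, 3.22 and 4.37 CPM to 1.38, 1.62, 2.26 and 2.11, by -1.13 ± 0.25 (adjusted p = 0.000389). No group at nAT overlapped with the same genotype at hAT, and of the 3 calls for AT5G02575 that in 35S::PIF4 was lost when a library was left out (-0.97 without 35S::PIF4 nAT replicate 2). AT5G02565 changed by -2.49 in Col-0 and by -1.43 in phyB, both called. In 35S::PIF4 its fold change was -0.83 (adjusted p = 0.00717), under the limit. The Col-0 response was larger than that of phyB (difference 1.24 for AT5G02575, adjusted p = 0.00336) and than that of 35S::PIF4 (1.43, adjusted p = 0.0006). The length offset kept the 6 values negative, between -1.11 and -2.97.

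**Figure D4:**
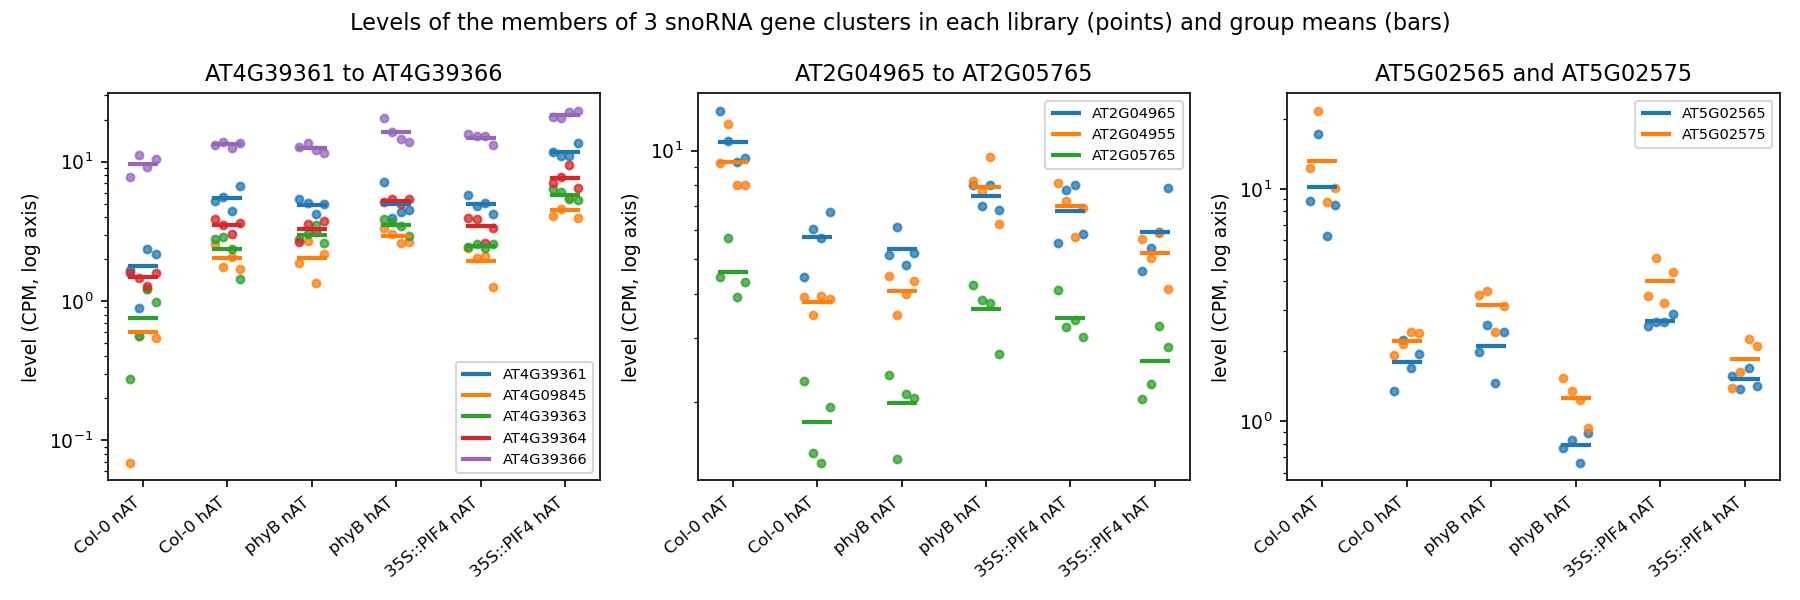
Level (CPM, log axis) of each member of the clusters on chromosome 4 (left), chromosome 2 (middle) and chromosome 5 (right) in each of the 24 libraries (points), with group means as bars. AT4G39361 reached 10.9 to 13.5 CPM in 35S::PIF4 at hAT, AT2G04955 was lower at hAT in Col-0 and higher in phyB, and AT5G02575 was lower at hAT in each genotype.

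The 6 largest rises between hAT and nAT in 35S::PIF4 were AT4G08625 (2.97), AT4G06315 (2.21), AT1G04187 (2.15), AT4G15258 (SNOR37-2, 2.04), AT1G04223 (1.93) and AT1G06267 (1.75). AT4G15258 was higher in 35S::PIF4 at hAT than at nAT with an adjusted p of 3.31e-06. AT4G06315 and AT4G15258 lie in a cluster on chromosome 4 of which all 4 tested genes were called higher, with medians of 1.81 in 35S::PIF4, 0.92 in phyB and 0.51 in Col-0. AT1G04223 and AT1G04217 lie in a cluster on chromosome 1 of which all 3 tested genes were called higher in 35S::PIF4, between 1.64 and 1.93, and 1 in Col-0. These are genes of low level, and several share long runs with a gene elsewhere, such as 49 bases between AT1G04223 and AT1G04193 and 45 between AT4G06315 and AT3G04155. The falls in 35S::PIF4 were AT5G02575 and AT1G07897, which changed by -1.06 (adjusted p = 0.000159) and lost its call without 35S::PIF4 nAT replicate 4 (-0.99) or hAT replicate 1 (-0.90).

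In phyB the largest rises at hAT were AT4G06255 (1.68), AT1G32385 (1.55), AT5G66562 (1.54), AT4G06310 (1.38), AT4G08615 (1.28) and AT1G06277 (1.26). AT4G06255 and AT4G06310 share 115 and 78 bases with AT4G06305 and AT4G06250, so that their counts are uncertain. Besides the chromosome 5 pair, AT2G43137 (-1.24), AT1G08937 (-1.21), AT4G08175 (-1.06) and AT5G06825 (-1.001) fell, and each of these 4 lies in an intron of a host gene and lost its call when 1 of 2 to 5 libraries was left out.

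In Col-0 the largest falls at hAT beside the chromosome 5 pair were AT1G07393 (-2.90), AT1G07897 (-2.38), AT1G09787 (-2.36) and AT5G07095 (-2.28). AT1G07897 was 6.93, 9.12, 6.74 and 8.54 CPM at nAT and 1.93, 1.35, 1.10 and 1.59 at hAT, without overlap. In phyB it did not pass the test (0.16 ± 0.21, adjusted p = 0.559), and the difference of the responses was called (2.54, adjusted p = 3.29e-08). It lies opposite to AT1G53541, and reads of the pair cannot be told apart without strand. The largest rises were AT4G08625, AT2G43137, AT2G20723 (2.51), AT2G08760 (2.39), AT1G06273 (2.36) and AT2G08755 (2.29). Single Col-0 nAT libraries moved the last 2 values, to 3.52 for AT1G06273 without replicate 2 and to 3.25 for AT2G08755 without replicate 4. AT4G08625, in an intron of AT4G31980, had no read in Col-0 at nAT and 54 counts at hAT, which is at least 11.2-fold higher when a floor of 3 counts over the group is taken. AT2G43137 had 1 count at nAT and 27 at hAT, a ratio of 16.7 with a counting interval of 2.76 to 686. That 1 count lay in Col-0 nAT replicate 4, without which the gene had no read at nAT.

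The comparisons of phyB and of 35S::PIF4 with Col-0 at nAT share the Col-0 nAT libraries with the comparison of the temperatures in Col-0. In phyB the largest values were those of AT4G08625 (37 counts, at least 8.06-fold), AT2G43137 (ratio 22.2, interval 3.73 to 903), AT1G06273 (2.37, and 3.54 without Col-0 nAT replicate 2), AT2G08760 (2.22), AT5G52471 (2.01) and AT4G39363 (1.93) on the log2 scale. The lowest were AT1G07393 (-2.71), AT5G66562 (-2.44), AT1G09787 (-2.28), AT5G02565 (-2.26), AT1G12013 (SNOR111, -2.12) and AT5G07095 (-2.05). In 35S::PIF4 AT4G08625 had 14 counts (at least 2.77-fold), AT2G43137 had a ratio of 29.7 (interval 5.09 to 1196), and AT5G52471 (2.88), AT2G08760 (2.81), AT2G35744 (2.35) and AT2G20723 (2.33) followed. The lowest there were AT5G02565 (-1.91), AT1G07393 (-1.87), AT1G12013 (-1.86), AT5G02575 (-1.70), AT1G19373 (-1.63) and AT3G02435 (-1.51), and the call of AT1G19373 was lost without Col-0 nAT replicate 2 (-1.01), while its value was -2.32 without 35S::PIF4 nAT replicate 3.

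Split by sequence class, 41 tested genes held both box C and box D, and 22 held the ACA letters without both boxes. In Col-0 at hAT, 12 of the box C/D genes rose and 8 fell, with a median log2 fold change of 0.60, against 3 and 7 with a median of -0.27 for the ACA genes, beside 24.2% higher and 13.4% lower over all tested genes. With the length offset 5 of the box C/D genes were higher and 14 lower (median -0.32), and none of the ACA genes was higher and 11 were lower (median -1.02). That fit called 28.1% of all tested genes (3651 higher and 2342 lower). In 35S::PIF4 the medians at hAT against nAT were 0.23 and -0.16, and in phyB they were 0.16 and 0.42, in the reverse order. The offset gave -0.13 and -0.49 in 35S::PIF4, and -0.10 and 0.21 in phyB. Between 35S::PIF4 and Col-0 at hAT the medians were 0.57 and 0.43, and 3 of the box C/D genes and none of the ACA genes were called, and with the offset they were 0.31 and 0.20 with no call in either class. The difference between the classes was not tested.

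The most abundant gene and its neighbours had opposite signs in Col-0. AT3G47348 was 38.5, 57.4, 32.7 and 42.7 CPM in Col-0 at nAT and 23.6, 26.6, 22.8 and 21.8 at hAT, without overlap and with a log2 fold change of -0.85 ± 0.10 (adjusted p = 3.82e-08), under the limit for a call. It differed by -0.06 in phyB and -0.08 in 35S::PIF4 between the temperatures. The other 5 genes of its cluster had values of 0.41 to 1.08 in Col-0, of which 1 was called. Of 28 clusters with at least 2 tested genes, 16 held a gene that rose in Col-0 at hAT and 6 held one that fell, and no cluster held both. Over all tested genes 24.2% were higher and 13.4% lower. In phyB against Col-0 at nAT 11 clusters held a higher gene and 11 a lower one, and 1 held both. Members of some clusters share runs of bases, so that their counts may not be independent. Whether clusters held both less often than by chance was not tested.

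Of the 27 tested snoRNA genes in introns, 12 rose at hAT in Col-0 and none fell, with a median log2 fold change of 0.95. The median over the host of each was -1.07, and of the 16 hosts none rose and 9 fell, beside 24.2% higher and 13.4% lower over all tested genes. The hosts are longer than the snoRNA genes, and the contrast depended on the length offset, with which 4 of the intronic genes were higher and 9 lower (median 0.04) and 3 of the hosts were lower and none higher (median -0.38). The same fit called 28.1% of all tested genes (3651 higher and 2342 lower). U60.1F (AT5G52471) was 0.624, 1.29, 0.337 and 0.816 CPM in Col-0 at nAT and 3.87, 3.30, 3.68 and 3.56 at hAT, a log2 fold change of 2.25 ± 0.26 (adjusted p = 1.54e-08). Its host FIB1, the methyltransferase of the box C/D complex, was 696, 701, 622 and 659 CPM at nAT and 404, 410, 399 and 388 at hAT, at -0.74 ± 0.05 (adjusted p = 1.00e-13). Neither overlapped between the temperatures. In 35S::PIF4 U60.1F was 4.76, 6.79, 5.55 and 5.11 CPM at nAT and 3.14, 4.40, 4.05 and 2.75 at hAT (-0.63 ± 0.18, adjusted p = 0.0053), and FIB1 changed by -0.44.

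U60.2F and the following pair were named after their values were seen. U60.2F (AT4G25631), in an intron of the second fibrillarin gene FIB2, had 0.95 ± 0.41 in Col-0 (adjusted p = 0.0363), and FIB2 fell by 1.60. With the length offset U60.1F kept 1.27 in Col-0, still called, and U60.2F went to -0.03. The snoRNA genes AT1G09083 and AT1G09087, in introns of the ribosomal protein gene RPL34 (AT1G69620), rose by 1.59 and 1.30 in Col-0, while the host changed by -1.58. In 35S::PIF4 between hAT and nAT the medians were -0.06 for the intronic genes and -0.44 for the hosts, and 19 of the 27 pairs had the same sign, against 15 in Col-0. The Spearman correlation between snoRNA and host was 0.75 in 35S::PIF4, 0.55 in phyB and 0.23 in Col-0, over 27 genes of which several share a host and all share libraries.

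**Figure D5:**
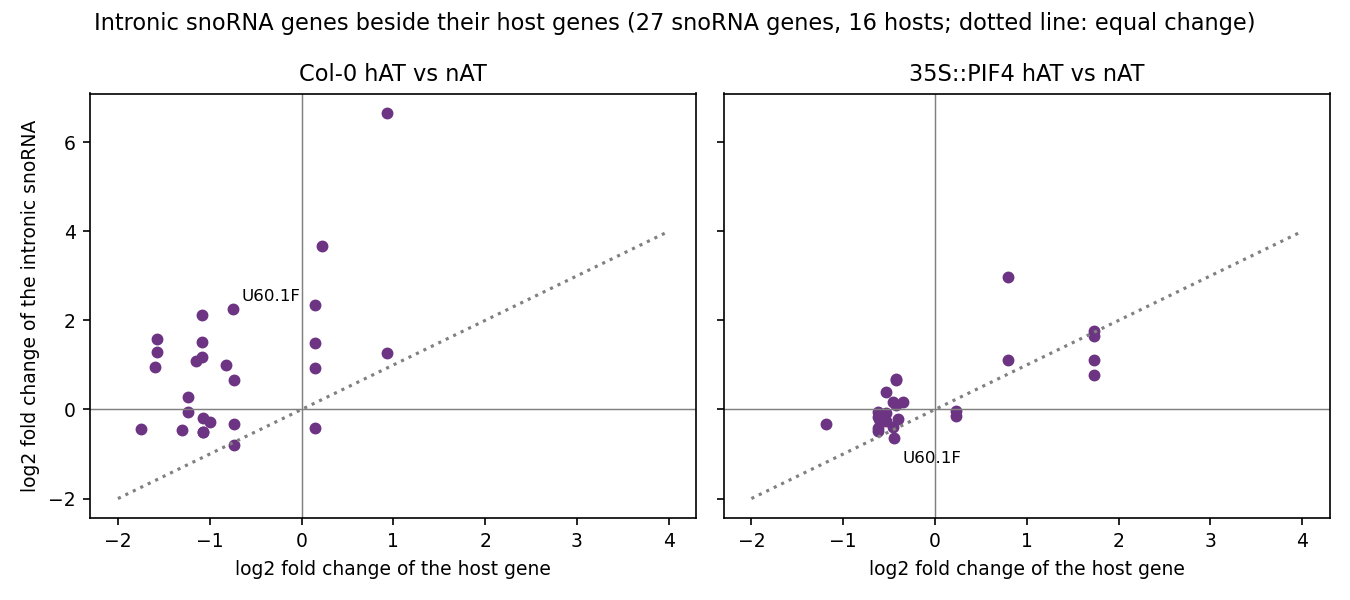
Log2 fold change of 27 intronic snoRNA genes (vertical) against that of their 16 host genes (horizontal) between hAT and nAT in Col-0 (left) and 35S::PIF4 (right), with a dotted line of equal change. In Col-0 the snoRNA median is 0.95 and the host median -1.07, so that most points lie above the line, and U60.1F stands at 2.25. The highest point is AT4G08625, whose fitted value depends on the prior count because Col-0 at nAT had no read.

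Genes for the proteins that bind and process snoRNAs were called about as often as all tested genes in Col-0. Of 27 genes for the core proteins of both complexes, nucleolins and nucleases, 5 rose and 6 fell in Col-0 at hAT (40.7%, background 37.6%, median -0.07). FIB2, the box C/D core protein genes AT5G20160, AT4G12600 and AT4G22380, GAR1 (AT3G03920) and NHP2 (AT5G08180) were the ones that fell. The nucleolin gene NUC-L2 (AT3G18610) rose by 1.95 and the exonuclease gene XRN2 (AT5G42540) by 1.55. In phyB and in 35S::PIF4 1 of the 27 was called between the temperatures (3.7%, backgrounds 8.09% and 11%). None of the 27 was called between genotypes at hAT (backgrounds 4.78% and 3.08%), where 8 and 7 had an unadjusted p under 0.05 in phyB and in 35S::PIF4. The share of all tested genes at that unadjusted limit is not given here.

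The test of the difference of the responses to hAT called 48 of the 102 snoRNA genes between phyB and Col-0 (25 with a higher response in phyB and 23 with a lower one, 47.1% against 32.2% of all tested genes, 10.6% and 21.6%). With the length offset 37 were higher and 9 lower. Between 35S::PIF4 and Col-0 33 were called (21 and 12, background 31.1%, with 11.8% and 19.4%), and 35 and 7 with the offset. Between 35S::PIF4 and phyB 7 were called, in a contrast without the Col-0 means but with the spread pooled over all libraries, and 11 when the Col-0 nAT libraries were left out of the fit. The 7 calls (3 and 4, background 6.36%, with 5.46% and 0.896%) were AT4G08625 (1.90), AT1G03935 (1.38) and AT4G39361 with a higher response in 35S::PIF4, and AT2G04955, AT2G05765, AT1G07897 (-1.22) and AT3G05355 (-1.01) with a lower one. AT3G05355, named after its values were seen, was 5.60, 5.19, 5.36 and 5.02 CPM in 35S::PIF4 at nAT and 3.69, 3.32, 2.97 and 3.43 at hAT. In phyB it was 3.50, 2.86, 3.17 and 3.01 CPM at nAT and 4.09, 3.66, 4.39 and 3.80 at hAT. Both lines thus separated the temperatures without overlap and in opposite directions.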

How the data were processed

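Total RNA of pistils from 6 groups of 4 libraries was selected with oligo(dT) and sequenced as paired-end reads. The authors trimmed the reads with fqtools, mapped them to the TAIR10 genome (annotation Araport11) and counted them per gene with featureCounts, and they deposited raw counts, 1 column per library. No source used here gives the aligner, the strand setting or the handling of reads on overlapping genes. A deposited table of FPKM values of the same libraries was not used here. The tools named by the submitters' notes are featureCounts and the build TAIR10.

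Genes were filtered with filterByExpr by group, normalised by TMM and fitted with 6 group means over all 24 libraries by edgeR's quasi-likelihood method (edgeR 4.0.16, limma 3.58.1, R 4.3.3). The 7 comparisons and 3 differences of responses were contrasts of this fit, with Benjamini-Hochberg adjustment over all 21312 tested genes. The study itself used DESeq2, which was run as an alternative (DESeq2 1.42.0). A standard error is the fold change divided by the square root of F, and it rests on the spread pooled over the groups. Levels in single libraries are CPM by TMM-scaled library size, and the levels per kilobase are CPM by the total gene count. Shares were compared by exact two-sided permutation over libraries (SciPy 1.17.1, Python 3.11.15, pandas 2.3.3, numpy 2.4.6), and figures were drawn with Matplotlib 3.10.9. The method was tested on simulated counts with known changes. Intervals on ratios of counts are exact at 95% and cover counting error only. Depth was 18379748 to 30184035 counts per library.

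Alternatives were RLE size factors, DESeq2, other low-count filters, a replicate block, a per-library offset for gene length, no fold limit, other numerators and denominators of the share, and leaving out each library in turn. A fit without the Col-0 nAT libraries was added after the data were seen.

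The genes named are the 10 with the highest mean CPM, up to 6 of the largest rises and 6 of the largest falls called in each comparison, those with 9 or 10 counts, and their neighbours and hosts, with exceptions stated in the text. Of the snoRNA protein list, up to 4 genes were to be described with values. The members and the lists were chosen with earlier results of these data known. Sequences, coordinates and promoter windows came from the RefSeq TAIR10.1 annotation, and 287 of 287 snoRNA genes matched by locus.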

Additional observations from a re-analysis of the deposited data

Results flagged for a closer look

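Single libraries stood apart from the other 3 of their group in 10 of the 288 combinations that were checked, which are the genes named by rule and the snoRNA share in each of the 6 groups. A library was taken to stand apart when its gap to the nearest of the others, as a share of the range of the group, was above Dixon's 95% limit for 4 values. The 10 are 3.47%, where chance alone gives about 1 in 20. In phyB at hAT, AT1G09467 was 11.09 CPM in replicate 1 against 6.231 to 7.062 in the others. Replicate 2 of the same group accounted for 3 more. It was high for AT1G04223 (0.9154 against 0.3592 to 0.3786 CPM) and AT1G06267 (1.874 against 0.8433 to 0.9878), and low for AT4G15258 (0.6539 against 0.898 to 0.937). In phyB at nAT, AT4G08175 was 0.5366 CPM in replicate 2 against 1.033 to 1.069. In Col-0 at hAT, replicate 2 was low for AT2G04955 (3.489 against 3.872 to 3.933 CPM) and high for AT1G09787 (0.6978 against 0.296 to 0.3098), and replicate 1 was high for AT1G07393 (0.4255 against 0.1936 to 0.2326). In Col-0 at nAT, AT2G35744 was 1.533 CPM in replicate 2 against 0.6928 to 0.8086, and AT2G43137 was 0.05442 CPM in replicate 4, from 1 count, against 0 in the others.

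The response to hAT differed between genotypes by edgeR's test of the difference for 31 of the 49 genes that were checked, over 52 differences on the log2 scale with Benjamini-Hochberg adjusted p. The 49 are the genes named by rule and those called between 35S::PIF4 and phyB, so that the choice itself favoured such differences. Over all tested genes 32.2% were called between phyB and Col-0 and 31.1% between 35S::PIF4 and Col-0. Between 35S::PIF4 and phyB 6.36% were called. The differences with Col-0 rest on its nAT libraries. The response of phyB exceeded that of Col-0 for AT1G09787 (3.048, adjusted p = 3.72e-05), AT1G07393 (3.024, adjusted p = 0.000407), AT5G66562 (2.992, adjusted p = 4.39e-05), AT3G02435 (2.802, adjusted p = 7.17e-06), AT1G07897 (2.541, adjusted p = 3.29e-08) and AT5G07095 (2.295, adjusted p = 1.65e-05). It also did so for AT2G05765 (2.244, adjusted p = 9.66e-08), AT2G04955 (2.243, adjusted p = 6.49e-10), AT4G06255 (1.774, adjusted p = 0.0354), AT1G09867 (1.719, adjusted p = 0.00694) and AT2G04965 (1.381, adjusted p = 4.51e-06), and for AT3G05355 (1.346, adjusted p = 1.43e-07), AT4G06310 (1.32, adjusted p = 0.0369), AT5G02575 (1.235, adjusted p = 0.00336), AT5G02565 (1.064, adjusted p = 0.0147) and AT3G08165 (1.008, adjusted p = 2.31e-05). It was below that of Col-0 for AT1G08937 (-2.285, adjusted p = 0.0019), AT5G52471 (-1.937, adjusted p = 1.22e-05), AT4G39361 (-1.58, adjusted p = 1.92e-05), AT2G20723 (-1.559, adjusted p = 0.000684) and AT2G08760 (-1.539, adjusted p = 0.0115), and likewise for AT4G39363 (-1.366, adjusted p = 0.000723), AT2G35744 (-1.355, adjusted p = 0.000196), AT4G09845 (-1.227, adjusted p = 0.0157) and AT1G09467 (-1.127, adjusted p = 0.00294). For AT4G08625 (-5.59, adjusted p = 0.00143) and AT2G43137 (-4.915, adjusted p = 0.000106) the fitted value depends on the prior count, since Col-0 at nAT had 0 and 1 counts.

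The response of 35S::PIF4 exceeded that of Col-0 for AT1G07393 (2.323, adjusted p = 0.00309), AT1G12013 (2.149, adjusted p = 0.00428), AT1G03935 (2.054, adjusted p = 0.00029), AT5G66562 (1.994, adjusted p = 0.00153), AT3G02435 (1.81, adjusted p = 0.00132), AT1G04217 (1.666, adjusted p = 0.0102) and AT5G02565 (1.659, adjusted p = 0.00014). The same held for AT1G09787 (1.658, adjusted p = 0.0107), AT4G06310 (1.524, adjusted p = 0.0111), AT5G02575 (1.426, adjusted p = 0.0006), AT5G07095 (1.422, adjusted p = 0.00132), AT1G07897 (1.318, adjusted p = 0.000404) and AT4G15258 (1.088, adjusted p = 0.036). It was below that of Col-0 for AT5G52471 (-2.888, adjusted p = 1.56e-08), AT2G20723 (-2.167, adjusted p = 1.04e-05), AT2G35744 (-1.761, adjusted p = 4.96e-06) and AT2G08760 (-1.506, adjusted p = 0.0111), and for AT2G43137 (-3.885, adjusted p = 0.0011), again with a fitted value that depends on the prior count. Against phyB, the response of 35S::PIF4 was higher for AT4G08625 (1.897, adjusted p = 0.0358), AT1G03935 (1.378, adjusted p = 0.0376) and AT4G39361 (1.241, adjusted p = 0.000418). It was lower for AT2G04955 (-1.408, adjusted p = 1.33e-05), AT2G05765 (-1.283, adjusted p = 0.00101), AT1G07897 (-1.223, adjusted p = 0.00356) and AT3G05355 (-1.007, adjusted p = 8.4e-05).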

How the results depend on the processing

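The counts of snoRNA genes called stayed within 1.5 times the reported ones under RLE size factors (53, 18, 22, 55, 40, 4 and 8 in the order of the report) and DESeq2 (62, 21, 25, 63, 43, 4 and 8). For phyB between hAT and nAT the 19 calls became 11 with a filter of 1 CPM in 4 libraries, 12 with the length offset and 37 by adjusted p alone. Without the fold limit 35S::PIF4 between hAT and nAT had 43 calls in place of 21, 35S::PIF4 against Col-0 64 in place of 41 at nAT, and 24 in place of 8 at hAT, where the length offset left 2, and phyB against Col-0 at hAT 14 in place of 4. Dropping the limit can only add calls for any set of genes, and the shares of all tested genes without it are not given here. Without the Col-0 nAT libraries the difference of the responses of 35S::PIF4 and phyB had 11 calls in place of 7, a fit chosen after seeing the data. The cause of these changes was not tested.

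Replicate numbers did not pair the libraries (correlations of deviations -0.0649 to 0.174, with 1 of 28 over 0.1). With replicate as a block, 35S::PIF4 against Col-0 at hAT had 5 calls in place of 8, and the other comparisons had 57, 16, 21, 51, 40 and 4, and the 3 differences of responses 47, 34 and 6.

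The share of counts, as a difference in percentage points, turned from 0.005275 to -0.003053 in Col-0 between hAT and nAT with TMM-scaled library sizes, and from 0.001934 to -0.005378 in phyB against Col-0 at nAT. On that scale 35S::PIF4 against Col-0 at nAT went from 0.007538 to 0.0007835, and 35S::PIF4 against Col-0 at hAT (0.009043) and the temperatures in phyB (0.004161) and 35S::PIF4 (0.005206) reached an adjusted p of 0.05 (exact permutation), no longer under the threshold. Without AT3G47348, phyB against Col-0 at nAT was 0.003045 and passed the threshold (exact permutation, adjusted p = 0.0333).

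Leaving out 1 library gave 52 to 58 calls in Col-0, 14 to 20 in phyB and 18 to 22 in 35S::PIF4 between the temperatures. It gave 49 to 57 and 39 to 45 against Col-0 at nAT, 3 to 5 and 6 to 12 at hAT, and 43 to 49, 31 to 37 and 6 to 11 for the differences of responses, the 11 without phyB nAT replicate 1. The share differences ranged from 0.004435 to 0.006254 in Col-0, from 0.004336 to 0.006122 in phyB and from 0.006933 to 0.008127 in 35S::PIF4. Between phyB and Col-0 they ranged from 0.001094 to 0.002913 at nAT and from 0.0009948 to 0.002781 at hAT, passing the threshold only without Col-0 nAT replicate 2 and without phyB hAT replicate 4 (0.0286 each, exact permutation, unadjusted). In Col-0 and in phyB p was 0.0571 (exact permutation, unadjusted) without any 1 of the 4 hAT libraries and any 1 of the 4 nAT libraries, respectively. The groups still did not overlap, and with 3 against 4 libraries p moves in steps of 0.0286. This loss of the call therefore does not show that the difference is weaker. For the genes named by rule, 892 of 933 alternative values kept direction and call, 41 kept the direction only and none reversed. These are the largest called changes of the same data, so that the choice itself favoured their stability. With the filter of 1 CPM in 4 libraries only 45 values remained to compare. Over all calls the length offset kept 30 of 55 in Col-0 between hAT and nAT. It kept 2 of 8 in 35S::PIF4 and 4 of 4 in phyB against Col-0 at hAT.

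Limits are the low counts of most snoRNA genes, oligo(dT) selection, unknown handling of shared reads and the shorter count-weighted mean gene length of the Col-0 nAT libraries. Few counts give wide intervals, as for AT2G43137.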
